A study of Mus musculus with 14 samples.

Results

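The genes described here encode the mouse translation initiation factors (eIF) and elongation factors (eEF). They were chosen by symbol, as protein-coding genes whose GENCODE M21 symbol begins with Eif1 to Eif6 or with Eef1 or Eef2. The eIF2α kinases, the eEF2 kinase and pseudogenes were left out. The rule took 63 genes of 21891 protein-coding symbols, 51 for initiation and 12 for elongation, and all 63 had entries in the data. The 12 elongation genes include 5 methyltransferases of eEF1A or eEF2. The genes were ordered into 15 complexes or families, and their 370 transcripts were summed by gene. RNA came from whole testes of 21-day-old C57BL/6 mice that were wild type for Adad2 (Adad2+/+, 3 animals) or mutant on both alleles (Adad2M/M, 4 animals). All 7 animals, wild types included, carried 1 RiboTag allele, which gives an HA-tagged Rpl22 protein once Cre has acted, and the Stra8-iCre transgene. Stra8-iCre is active in differentiating spermatogonia, so their descendants hold tagged ribosomes too, whereas the other cells of the testis keep untagged ones. Each animal gave an input library of total lysate RNA, from all testis cells, and an IP library of RNA pulled down with an antibody to HA, aimed at the tagged ribosomes of germ cells, which makes 14 libraries.

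Translation begins when eIF2 brings initiator tRNA to the small ribosomal subunit, with eIF1, eIF1A, eIF3 and eIF5 bound there, and when eIF4E, eIF4G and eIF4A load this assembly on the capped end of an mRNA. eIF2B recharges eIF2 with GTP, eIF5B joins the large subunit, eEF1A then delivers aminoacyl-tRNA and eEF2 moves the ribosome on by a codon. Several factors exist as paralogs, some of them on the sex chromosomes. Many factor mRNAs start with a terminal oligopyrimidine (TOP) tract, a run of C and T at the first base through which growth signals control their translation.

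Sequence sets the limits of what can be told apart among these genes, and it is shown here for that reason and for the tracts. The first set gives the first 30 coding bases of 2 pairs of paralogs that are compared as shares later, from GENCODE M21 transcripts, with capitals at the bases at which a pair differs.
Eif1: atgtccGctatccagaacctccaCtctttc
Eif1b: atgtccActatccagaacctccaAtctttc
Eif2s3x: atggcTggGggTgaGgGTggAgtGactctc
Eif2s3y: atggcGggCggAgaAgCCggTgtCactctc
Eif1 and Eif1b differ at 2 of these 30 bases and share 81.3% of their 342 coding bases. Eif2s3x and Eif2s3y differ at 8 of the 30 and share 86.3% of 1419 coding bases. For each gene the coding transcript with the most reads over all libraries was used, which for Eif4e has only 399 coding bases. The longest identical run between these transcripts of a pair was 9 to 34 bases for all pairs examined but 1. Eif3j1 and Eif3j2, both coding for the loosely bound j subunit of eIF3, share an unbroken run of 1107 bases, so reads within it cannot be assigned to either of them.

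The second set gives the start site windows of factors named as TOP mRNAs, and of the X- and Y-linked copies of the eIF2 γ subunit. Each window runs from 10 bases before to 20 bases after an annotated start on the RefSeq assembly GRCm38.p6, 5′ to 3′ on the strand of the gene. Where a gene had several annotated starts, the one whose window held the longest run of C and T letters was taken. This was done for every gene, so the shares below count starts picked for their run. Capitals mark the longest run of C and T letters.
Eef1a1 (chr9:78481705-78481734, minus strand): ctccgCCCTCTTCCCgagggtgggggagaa
Eif3f (chr7:108934405-108934434, plus strand): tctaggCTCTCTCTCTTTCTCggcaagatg
Eef2 (chr10:81176621-81176650, plus strand): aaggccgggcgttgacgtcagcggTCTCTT
Eif4b (chr15:102073763-102073792, plus strand): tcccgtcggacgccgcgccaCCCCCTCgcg
Eef1b2 (chr1:63176821-63176850, plus strand): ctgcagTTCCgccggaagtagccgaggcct
Eif2s3x (chrX:94212632-94212661, minus strand): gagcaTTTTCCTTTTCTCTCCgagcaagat
Eif2s3y (chrY:1010585-1010614, plus strand): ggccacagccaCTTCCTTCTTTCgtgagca
A run of at least 8 C or T letters on the gene's strand lay in the windows of 9 of the 47 factors that had one (19.1%), and in 2167 of 16518 windows of protein-coding genes (13.1%). Among 9 factors with known TOP mRNAs, 5 had a window and 2 of them, Eef1a1 and Eif3f, held such a run. The run of Eef2 ends with its window, so its length of 6 is a lower bound. Runs anywhere in a window were counted, whereas a TOP tract starts at the first base, so these counts do not measure TOP tracts. These letters describe the annotated starts so picked, and which starts were used was not measured in these libraries.

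The libraries held 22987974 to 30871330 expected counts, the reads that RSEM assigned to transcripts. The factors made up 0.922% to 0.985% of counts in the 7 input libraries, 1.19% to 1.22% in wild-type IP and 1.32% to 1.37% in mutant IP. Of the TPM of protein-coding genes, which is scaled by transcript length, they made up 1.59% to 1.84% in all 14 libraries. The mutants 12 and 69 stood apart, since their input libraries had counts above 0 for 16024 and 15438 annotated genes, against 21334 to 27791 in the other input libraries. In IP, all 4 mutants had fewer genes above 0 (12744 to 15024) than the 3 wild types (19655 to 21880), so this number moves with genotype in the IP and ratio comparisons and its part in them was not tested. Adad2 itself was at 25 to 30.1 CPM (counts scaled to library size) in wild-type input and at 5.04 to 11.3 CPM in mutant input, and at 99.2 to 109 and 6.33 to 11.3 CPM in IP. CPM here is scaled with edgeR's TMM factors over the 14 libraries, and it serves to compare 1 gene between libraries, while levels between genes are given in TPM. Sertoli cell markers (6 genes) summed to 543 to 624 CPM in wild-type input and to 51.5 to 168 CPM in wild-type IP, so RNA of somatic cells was reduced in IP but not absent. Spermatogonial markers (5 genes) summed to 70.3 to 81.9 CPM in wild-type input and 326 to 408 CPM in wild-type IP, and 6 spermatocyte markers to 2411 to 2854 and 5401 to 6272 CPM.

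By TPM, the factors of wild-type input spanned the range of the whole transcriptome. Eef1a1, the main carrier of aminoacyl-tRNA, was the fourth most abundant protein-coding gene, with 4993, 5359 and 5557 TPM in the 3 animals. Eif1, which guards the choice of start codon, had 1376, 1263 and 1135 TPM, and Eef2, the translocase, had 1204, 1094 and 1213 TPM. These values of Eif1 and Eef2 overlap, so their order is not resolved. Eif5a, the hypusine-bearing factor that eases peptide bond formation, followed with 766, 853 and 840 TPM, and Eif5, which triggers GTP hydrolysis on eIF2, with 637, 686 and 588 TPM, without overlap. At the other end were Eef1a2, the eEF1A of muscle and neurons, at 0.0931, 0.100 and 0 TPM, and the eEF1A methyltransferase gene Eef1akmt3 at 0, 0.0668 and 0.394 TPM. Eif4e1b, an oocyte form of the cap-binding protein, had 1.55, 0.267 and 0.896 TPM, and Eif4ebp3, a repressor of eIF4E, had 1.65, 1.70 and 0.896 TPM. These 4 genes were too low for most of the tests.

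The first comparison asked which factor mRNAs were more or less abundant in ribosome-bound germ cell RNA than in the total RNA of the same testis. In wild type, 36 of 59 tested factors were higher in IP and 2 were lower by edgeR at a Benjamini-Hochberg adjusted p under 0.05. Among all protein-coding genes tested, 24.8% were higher and 7.76% lower. The median log2 difference was 0.83 for the factors and 0.19 for the protein-coding genes. In mutants, 14 of 59 factors were higher and 2 lower, beside 9.78% and 4.57% of protein-coding genes, and the medians were 0.61 and -0.13. Counted without a test, the IP level was above input in every wild-type animal for 39 of 59 factors (35.7% of protein-coding genes) and below in every one for 13 (41.0%). In every mutant it was above for 28 (24.4% of protein-coding genes) and below for 8 (24.7%). Input also held more somatic cell RNA than IP, as the Sertoli sums above show, and its part in these differences was not tested.

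The wild-type count rests on all 3 animals. Without animal 121 or without animal 140 edgeR called no factor, though 36 were higher and 3 or 2 lower at an unadjusted p under 0.05, and 21 were called without animal 17. Of all features, 5031 were higher and 3136 lower at that unadjusted p of 36015 without animal 121, and 5675 and 3708 of 36735 without animal 140. Without mutants 12 and 69, edgeR called no factor in the mutants, although p was under 0.05 before adjustment for 23 that were higher and 9 that were lower. DESeq2 was not run on these subsets. In mutants with all 4 animals DESeq2 called 19 higher and 7 lower, beside 19.0% and 25.9% of protein-coding genes. The wild-type split also moved with the scale: 41 factors were higher and 6 lower by DESeq2 (38.3% and 23.9% of protein-coding genes), and 33 and 9 when protein-coding genes alone were fitted (26.7% and 24.5%). They were 38 and 8 among genes with at least 10 counts in every library (35.9% and 23.1%), and 15 and 15 by limma on log2(TPM + 1) (13.2% and 36.5%). Of the 36 factors called higher by edgeR in wild type, limma on log2 TPM also called 14, left 14 above 0 without a call and turned 8 below 0. Among these 8 it called Eef2 lower (adjusted p = 0.0126). The 14 without a call, listed after their values were seen, were Eef2kmt, Eif1ad, Eif2a, Eif2b4, Eif2b5, Eif2s2, Eif3h, Eif3i, Eif3j2, Eif3k, Eif3l, Eif3m, Eif4a2 and Eif4h. Of the 14 called higher in mutants it also called 9, and the other 5 (Eef1g, Eif2b3, Eif3h, Eif3k and Eif4h) stayed above 0. It called both factors that were lower, in each genotype. Over every alternative run the wild-type median of the factors stayed above that of the protein-coding genes, by 0.47 to 0.85. In the wild-type comparison, fitted log2 differences lie 0.31 above those computed from the CPM levels, over 8376 genes. In the mutant comparison the same offset was -0.0020. Each fit took TMM factors from its own libraries and features, whereas the CPM levels took them from all 14 libraries. The fitted values and calls of wild types and of mutants are therefore not on 1 scale.

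**Figure D1:**
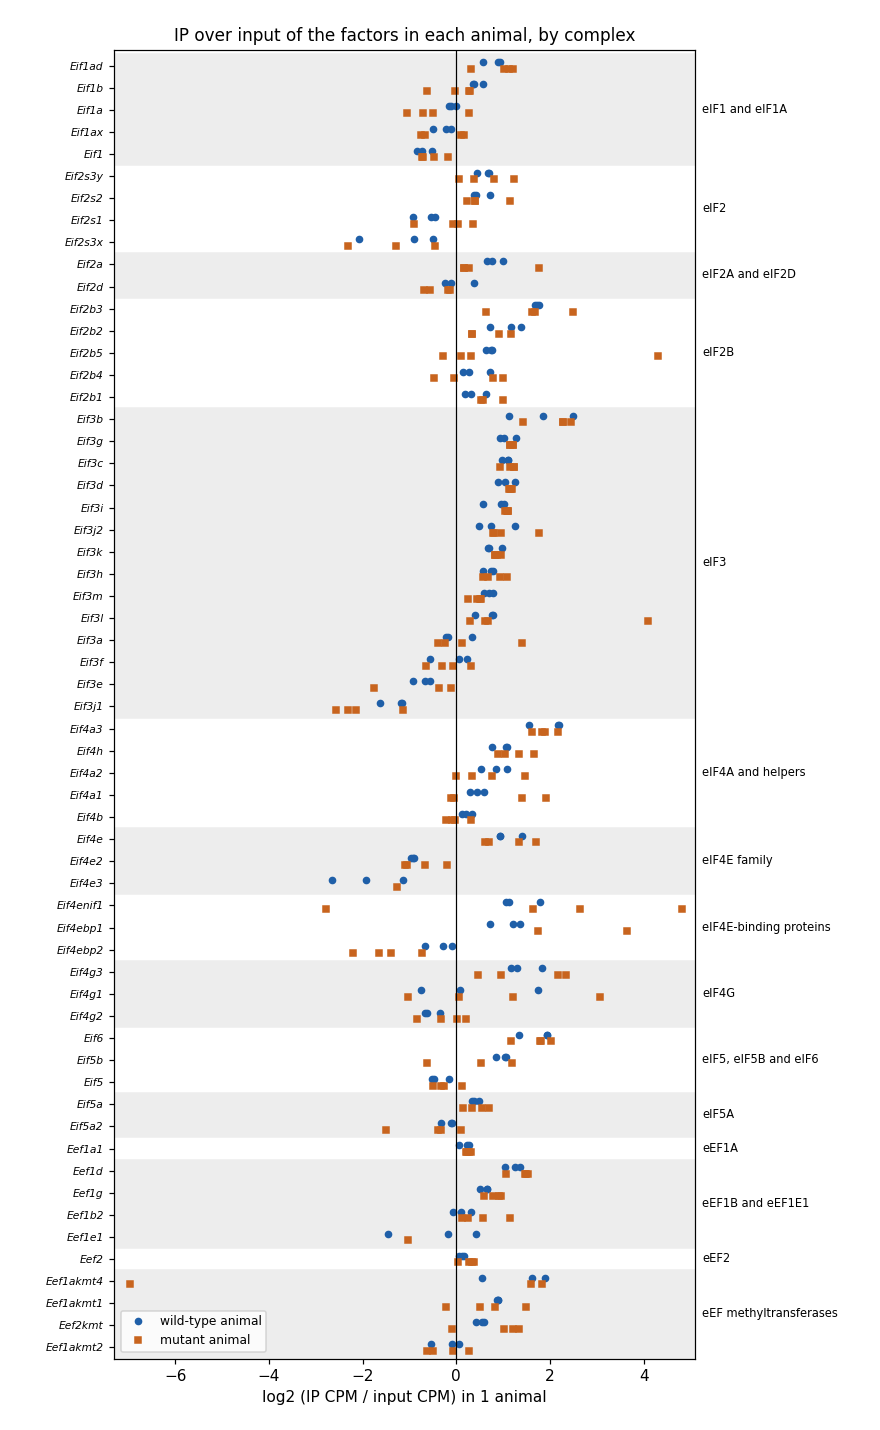
Each row is 1 of the 59 factors tested in wild type, grouped by complex. Each point is the log2 of the IP level over the input level (CPM) in 1 animal, with 3 wild types as circles and 4 mutants as squares, and the vertical line marks equal levels. Animals with a level of 0 in either fraction are not drawn. The points of eIF2B, eIF3 and eIF4A mostly lie right of the line, and those of Eif4e2 and Eif3j1 left of it. On the log2 TPM scale 19 of these wild-type differences change sign, 17 of them to below 0, among which 8 had passed the test (Eef1a1, Eef1g, Eef2, Eif1b, Eif2s3y, Eif4a1, Eif4b and Eif5b).

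The start codon factors divided in wild type. Of the 5 genes for eIF1, eIF1A and a relative, 2 were higher in IP and none was lower by edgeR, although 1 was lower both at an unadjusted p under 0.05 and by DESeq2. In mutants edgeR called none, p before adjustment was under 0.05 for 1 higher and 1 lower gene, and DESeq2 called 1 higher and 2 lower. Eif1ad, a relative of eIF1A that binds RNA, had 38.0, 38.1 and 32.4 CPM in wild-type input and 56.3, 72.9 and 59.9 CPM in IP, a log2 difference of 1.11 ± 0.11 (SE, adjusted p = 0.00952). The fractions did not overlap. Eif1 itself had 188, 180 and 167 CPM in input and 113, 100 and 117 CPM in IP, which did not overlap either, but the difference of -0.39 ± 0.10 missed the threshold (adjusted p = 0.0839).

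For eIF2, the carrier of initiator tRNA, 2 of 4 genes were higher in wild-type IP by edgeR and DESeq2. Eif2s1, the α subunit gene named after its values were seen, had 89.4, 100.3 and 87.5 CPM in wild-type input and 47.2, 73.4 and 59.7 CPM in IP. Its fractions did not overlap, with a log2 difference of -0.33 ± 0.11 that passed by DESeq2 (adjusted p = 0.0206) but not by edgeR (adjusted p = 0.136). In mutants edgeR called none of the eIF2 genes, with 2 higher at an unadjusted p under 0.05 and 1 called higher by DESeq2. Its β subunit gene Eif2s2 rose from 192, 191 and 182 CPM in input to 317, 246 and 245 CPM in IP (log2 0.82 ± 0.12, adjusted p = 0.0220). On log2 TPM this difference was 0.0065 and did not pass (adjusted p = 0.966). The γ subunit is made from an X-linked and a Y-linked gene, and Eif2s3y is the copy known to be needed for spermatogonial proliferation. Eif2s3y had 35.3, 32.7 and 35.1 CPM in input and 56.8, 44.1 and 56.8 CPM in IP, a log2 difference of 0.92 ± 0.13 by edgeR (adjusted p = 0.0184) that became -0.039 on the log2 TPM scale. Eif2s3x had 20.8, 25.2 and 28.6 CPM in input and 14.7, 5.97 and 15.3 CPM in IP (log2 -0.84 ± 0.40, adjusted p = 0.234). The 2 fractions of Eif2s3x did not overlap, yet the test did not pass.

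Of the eIF2B genes, whose product exchanges GDP for GTP on eIF2, 4 of 5 were higher in wild-type IP and 1 in mutant IP. Eif2b3, the γ subunit, had 22.3, 22.3 and 17.2 CPM in wild-type input and 71.3, 73.5 and 57.9 CPM in IP. The difference was 2.03 ± 0.10 on the log2 scale, or 4.08-fold (adjusted p = 0.00634). In mutants it had 26.2, 16.6, 23.5 and 35.4 CPM in input and 83.7, 93.8, 72.1 and 55.2 CPM in IP (log2 1.61 ± 0.31, adjusted p = 0.0271). No IP library of either genotype overlapped with input. Eif2b2, the β subunit and the eIF2B gene of highest TPM in wild-type input, rose by 1.40 ± 0.18 in wild-type IP (adjusted p = 0.0156) and had 0.68 ± 0.32 in mutants (adjusted p = 0.258). Eif2a and Eif2d encode proteins that can bring tRNA to the ribosome without eIF2. Eif2a was higher in wild-type IP by 1.11 ± 0.15 (adjusted p = 0.0165), and Eif2d had 0.32 ± 0.20 (adjusted p = 0.329).

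For eIF3, the large scaffold on the small subunit, 10 of 14 genes were higher and 1 lower in wild-type IP, and 7 were higher and 1 lower in mutants. Eif3c, a core subunit, had 377, 328 and 355 CPM in wild-type input and 807, 708 and 698 CPM in IP, a log2 difference of 1.37 ± 0.08 (2.59-fold, adjusted p = 0.00634). In mutants it was 1.13 ± 0.09 (adjusted p = 0.00188). Eif3g, the RNA-binding subunit and the eIF3 gene of highest TPM in wild-type input, had 153, 135 and 150 CPM in input and 311, 324 and 284 CPM in IP (log2 1.38 ± 0.09, adjusted p = 0.00642). Both genes were far apart between fractions in every animal. Eif3i, a β-propeller subunit, and Eif3m, a subunit of the core ring, rose by 1.16 ± 0.13 (adjusted p = 0.0123) and 1.0 ± 0.09 (adjusted p = 0.00759) in wild-type IP.

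The gene called lower was Eif3j1, which had 41.1, 44.9 and 55.2 CPM in wild-type input and 18.5, 19.7 and 17.9 CPM in IP (log2 -1.01 ± 0.17, adjusted p = 0.0277). In mutants its difference was -2.05 ± 0.41 (adjusted p = 0.0312). Its near-identical copy Eif3j2, named here after its values were seen, differed by 1.13 ± 0.19 the other way in wild type (adjusted p = 0.0284). The sum of both had 68.4, 69.5 and 71.5 CPM in wild-type input and 56.6, 60.6 and 56.5 CPM in IP, with a fitted difference of 0.042 in wild type and -0.17 in mutants. RSEM divided the reads of the shared stretch between the genes, and no count on sequence unique to each was made. The part of that division in the call for Eif3j1 was therefore not tested.

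The eIF4F group showed its differences within families. The eIF4A helicases and their helpers were higher in wild-type IP for 5 of 5 genes, and 2 of 5 were higher in mutant IP. On log2 TPM, however, Eif4a1 and Eif4b turned to -0.12 and -0.34 in wild type. Eif4a3, which serves in the exon junction complex rather than in initiation, had the largest difference of all factors in this fit: 87.4, 81.9 and 114 CPM in wild-type input and 395, 377 and 337 CPM in IP. The log2 difference was 2.29 ± 0.18 (4.89-fold, adjusted p = 0.00694), and 1.88 ± 0.12 in mutants (adjusted p = 0.00122). Of the initiation helicases, Eif4a2 had 250, 289 and 271 CPM in input and 527, 419 and 488 CPM in IP (log2 1.13 ± 0.15, adjusted p = 0.0172). Eif4a1 had 203, 209 and 253 CPM in input and 306, 283 and 310 CPM in IP (log2 0.75 ± 0.11, adjusted p = 0.0190), with the TPM exception given above. Eif4b, which stimulates the helicase, had 0.53 ± 0.10 (adjusted p = 0.0351) in the same fit, and -0.01 ± 0.13 in mutants.

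Among the cap-binding proteins, Eif4e and Eif4e2 went opposite ways. Eif4e, the canonical form, had 70.8, 49.6 and 68.8 CPM in wild-type input and 135, 131 and 132 CPM in IP, a rise of 1.40 ± 0.12 on the log2 scale (adjusted p = 0.00800). Eif4e2 encodes a form that binds the cap without eIF4G and represses translation, and it had 218, 224 and 191 CPM in input and 111, 120 and 100 CPM in IP, a log2 difference of -0.63 ± 0.07 (adjusted p = 0.0119). For both genes, input and IP did not overlap in wild type. In mutants Eif4e was again higher, by 1.08 ± 0.23 (adjusted p = 0.0369), and Eif4e2 had -0.76 ± 0.18 (adjusted p = 0.0520). Eif4e3 was low, at 2.94, 3.54 and 2.55 CPM in wild-type input and 1.33, 0.563 and 0.670 CPM in IP, and it was listed at 0 in 3 of 4 mutant IP libraries.

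The scaffold gene Eif4g3, which male meiosis requires in the mouse, had 93.8, 79.4 and 47.9 CPM in wild-type input and 211, 194 and 170 CPM in IP (log2 1.74 ± 0.16, adjusted p = 0.00836). Its values in mutants were 76.4, 162, 38.2 and 54.6 CPM in input and 105, 315, 173 and 278 CPM in IP, which overlapped, with a log2 difference of 1.49 ± 0.43 (adjusted p = 0.114). Eif4g1, the broadly used scaffold, scattered from 40.5 to 89.1 CPM in wild-type input and from 39.0 to 135 CPM in IP, and its difference of 0.66 ± 0.52 was not resolved. Eif4g2, a scaffold that lacks the eIF4E site, had 460, 502 and 550 CPM in input and 360, 326 and 346 CPM in IP (log2 -0.24 ± 0.11, adjusted p = 0.238). Eif4enif1 encodes the protein that carries eIF4E to the nucleus and to RNA granules. It was higher in wild-type IP by 1.63 ± 0.17 (adjusted p = 0.0110), but in mutants its input ranged from 6.57 to 83.3 CPM and its IP from 12.0 to 198 CPM.

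Of the factors for subunit joining, Eif6, which keeps free large subunits apart from small ones, had 37.2, 40.5 and 52.7 CPM in wild-type input and 142, 155 and 134 CPM in IP (log2 2.05 ± 0.17, adjusted p = 0.00756). It was higher in mutant IP too, by 1.69 ± 0.21 (adjusted p = 0.00655). Eif5b, the GTPase that joins the subunits, had 1.3 ± 0.13 by edgeR in wild type (adjusted p = 0.00954) but -0.95 on log2 TPM. Eif5 had a fitted -0.07 ± 0.10 (adjusted p = 0.644). Its CPM levels were lower in IP without overlap, at 580, 619 and 551 in input and 419, 432 and 493 in IP. Eif5a was higher in wild-type IP by 0.71 ± 0.08 (adjusted p = 0.0135), and its low paralog Eif5a2 had 0.13 ± 0.13 (adjusted p = 0.513). Yet Eif5a2 had 36.2, 31.7 and 36.0 CPM in input and 33.3, 25.4 and 33.8 CPM in IP, lower in each animal. On log2 TPM it was called lower (-0.69 by limma, adjusted p = 0.0405).

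Of the elongation factors, the most abundant differed little between fractions by CPM. In wild type, 6 of 10 tested genes were higher in IP and none was lower by edgeR, where 8 were above and 0 below at an unadjusted p under 0.05 and DESeq2 called 8 higher and 0 lower. In mutants 2 of 10 were higher, Eef1d and Eef1g. Eef1a1 had 2412, 2491 and 2584 CPM in wild-type input and 2825, 2584 and 3119 CPM in IP, a difference of 0.50 ± 0.09 (adjusted p = 0.0362) that became -0.23 on log2 TPM. Eef2 had 1367, 1249 and 1422 CPM in input and 1420, 1407 and 1554 CPM in IP, with 0.43 ± 0.07 (adjusted p = 0.0222). On log2 TPM Eef2 was called lower, at -0.45 (limma adjusted p = 0.0126), so its call turns with the scale. Within each wild-type animal the IP/input ratio of CPM was 1.04 to 1.21 for Eef1a1 and 1.04 to 1.13 for Eef2, so both differences were small by CPM. By TPM this ratio was 0.715 to 1.02 for Eef1a1 and 0.681 to 0.793 for Eef2.

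The eEF1B subunits, which exchange nucleotide on eEF1A, differed from one another. Eef1d had 92.0, 88.2 and 116 CPM in wild-type input and 218, 225 and 240 CPM in IP, a log2 difference of 1.53 ± 0.10 (2.88-fold, adjusted p = 0.00634). In mutants it had 117, 79.6, 97.4 and 109 CPM in input and 244, 228, 269 and 304 CPM in IP (log2 1.38 ± 0.15, adjusted p = 0.00406). The fractions did not overlap in either genotype. Eef1g, the structural subunit, had 232, 200 and 247 CPM in wild-type input and 364, 314 and 352 CPM in IP (log2 0.91 ± 0.08, adjusted p = 0.00804), a difference that was -0.023 on log2 TPM. Eef1b2, the catalytic subunit, had 76.3, 77.9 and 92.8 CPM in input and 82.3, 96.4 and 87.8 CPM in IP (log2 0.42 ± 0.11, adjusted p = 0.0752), and these ranges overlapped. By TPM, Eef1b2 was lower in IP without overlap, at 300.0, 300.8 and 331 in input and 220, 249 and 242 in IP (log2 -0.39 by limma, adjusted p = 0.0245), so its direction turns with the scale. Only 17.7% to 61.1% of the Eef1b2 counts lay on coding transcripts. Eef1e1, a related protein of the aminoacyl-tRNA synthetase complex, had 6.23, 3.76 and 10.7 CPM in wild-type input and 5.47, 5.0 and 3.89 CPM in IP, and was listed at 0 in 3 of 4 mutant IP libraries. Of the methyltransferase genes, 2 of 4 tested were higher in wild-type IP, and Eef1akmt1 rose by 1.20 ± 0.21 (adjusted p = 0.0317).

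**Figure D2:**
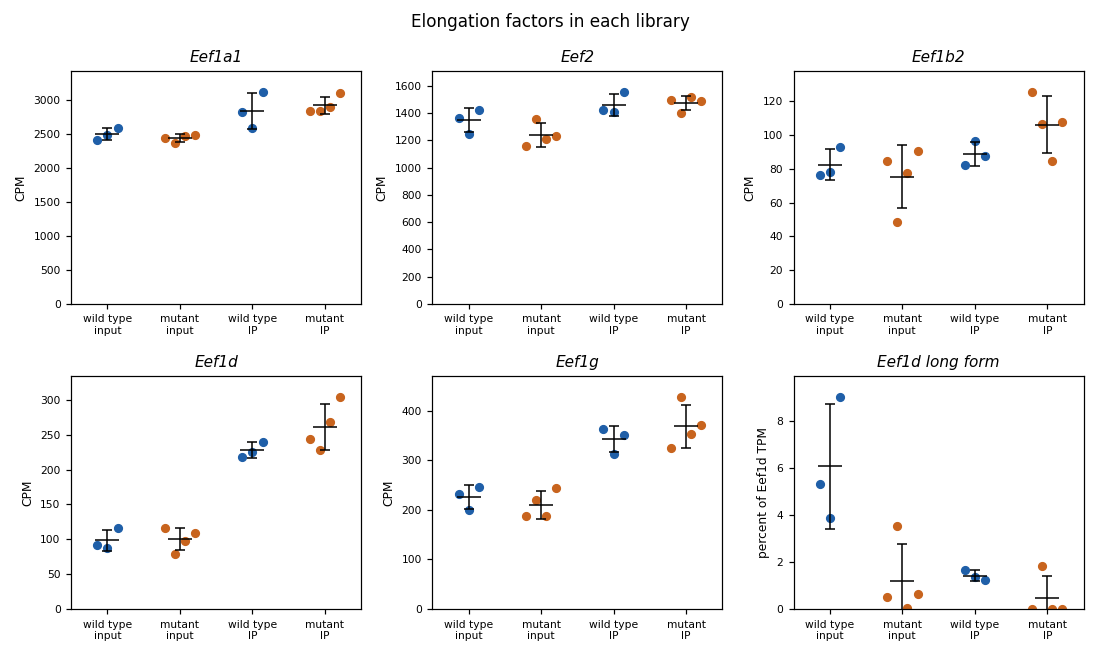
Each panel shows 1 elongation factor gene in the 14 libraries as CPM from 0, with 1 point per animal, the mean as a bar and the SD as whiskers. The last panel shows the long form of Eef1d in percent of the Eef1d TPM. Eef1d and Eef1g lie apart between input and IP in both genotypes, Eef1a1, Eef2 and Eef1b2 lie close. On log2 TPM the wild-type differences of Eef1a1, Eef2, Eef1g and Eef1b2 are negative.

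Eef1d also makes a longer protein with an additional N-terminal part. Its 3 transcripts, Eef1d-204 and Eef1d-206 with 1980 coding bases and Eef1d-212 with 1656, made up 5.33%, 3.86% and 9.0% of the Eef1d TPM in wild-type input and 1.66%, 1.36% and 1.22% in wild-type IP. In mutants they made up 0.500%, 3.52%, 0.0427% and 0.631% in input and 0.0125%, 1.85%, 0% and 0% in IP. In wild type the share was lower in IP than in input in every animal, and every mutant input lay below every wild-type input, while animal 69 stood above the other mutants in both fractions. The expected counts behind these shares were 329, 241 and 635 in wild-type input, 227, 204 and 238 in wild-type IP, 36.3, 179, 2.46 and 59.6 in mutant input and 1.89, 266, 0 and 0 in mutant IP. RSEM estimates how reads divide among transcripts that overlap, so the shares are a description without a test.

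Shares within families set the paralogs side by side per length. Eif1b made up 13.4%, 16.9% and 17.0% of the Eif1 and Eif1b TPM in wild-type input and 30.1%, 34.7% and 29.4% in IP. In mutants it was 15.5%, 14%, 15.5% and 14.7% in input and 17.0%, 23.5%, 17.1% and 28.9% in IP, so every mutant IP lay below every wild-type IP. Eif1a, the autosomal copy of the gene pair for eIF1A, made up 84.8%, 75.5% and 84.3% of the pair in wild-type input and 60.7%, 54.6% and 68.7% in IP. In mutant IP it made up 53.3%, 44.2%, 39.3% and 31.0%, below every wild type, and Eif1ax, from the X chromosome, held the rest. The fall from wild-type input to IP did not show by CPM. There Eif1a had a mean of 91.0 CPM in input and 85.8 CPM in IP, and Eif1ax 49.1 and 40.3 CPM. By TPM, Eif1ax rose from a mean of 28.8 to 55.2. Of the Eif1ax counts, 97.7% to 100% lay on its coding transcript in wild-type input and 77.8% to 89.9% in wild-type IP. In mutant IP it was 69.9% to 89.4%. The part of this shift between transcripts in the disagreement of TPM and CPM was not tested.

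Eif2s3y made up 75.2% ± 3.5 (SD, n = 3) of the eIF2 γ TPM in wild-type input and 89.0% ± 4.2 in IP, and 76.9% ± 7.2 and 93.3% ± 4.8 in the 4 mutants. Eif4g3 made up 57.2% ± 14.4 of the Eif4g1 and Eif4g3 TPM in wild-type input and 84.7% ± 7.7 in IP. By TPM, the widest exchange was in the eIF4E family, where Eif4e2 held 76.5% ± 5.5 in wild-type input and 30.2% ± 1.3 in IP. It held 65.2% ± 9.9 and 29.7% ± 5.7 in mutants. Eif4e held almost all of the rest. The width of this exchange depends on the scale. In wild type Eif4e rose from a mean of 105 to 419 TPM, but from 63.1 to 132.8 CPM. Eif4e2 fell from 355 to 182 TPM and from 211 to 110 CPM. Eif4a2 had 50.9% ± 3.5 and 59.0% ± 2.2 of the Eif4a1 and Eif4a2 TPM in wild type, and Eif5a2 had 2.16% ± 0.26 and 1.04% ± 0.17 of the eIF5A pair. Eef1a2 made up at most 0.0407% of the eEF1A TPM in any library.

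**Figure D3:**
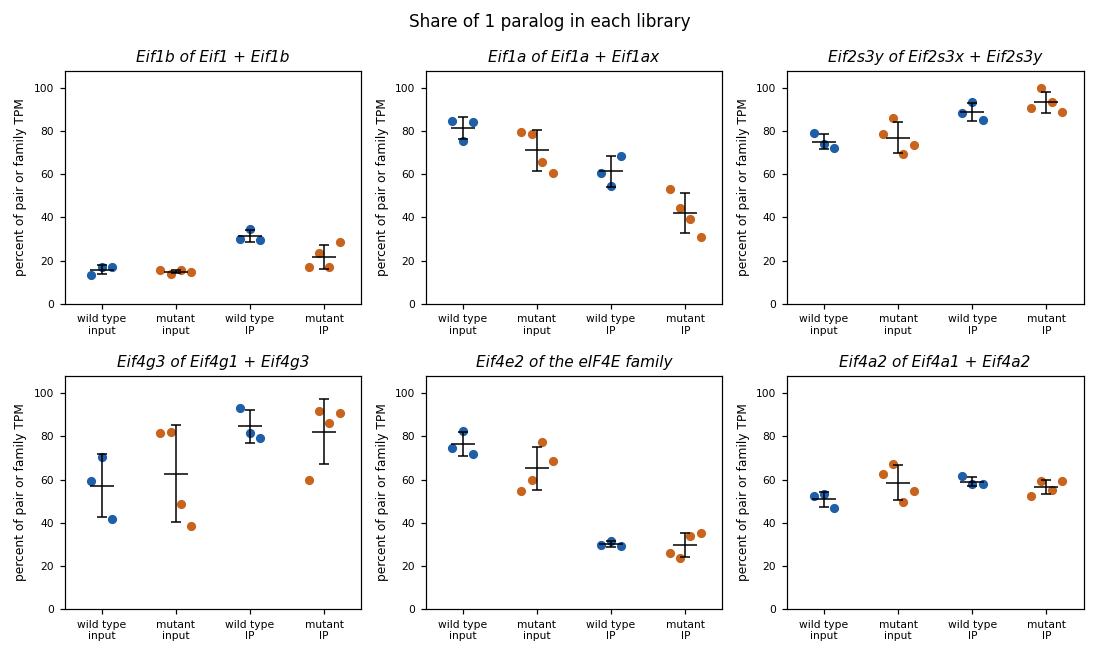
Each panel shows the share of 1 paralog in the TPM of its pair or family, in percent from 0, in the 14 libraries, with the mean as a bar and the SD as whiskers. Eif4e2 has a mean of 76.5% in wild-type input and 30.2% in IP, and Eif1b and Eif1a shares in mutant IP lie below those of wild-type IP.

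The second comparison asked whether the level of any factor differed between mutants and wild type. In input, edgeR called 0 of 59 factors (0.0082% of all features tested). Before adjustment, p was under 0.05 for 1 factor that was higher and 5 that were lower, beside 585 and 1740 of all 36572 features. Without mutants 12 and 69 it was so for 9 and 5 factors, and features were not counted there. DESeq2 called 3, Eif4ebp2 and Eif4b higher and Eif5 lower, where it called 3.25% of features. The median log2 fold change was -0.10 for the factors and -0.06 for protein-coding genes. All 4 mutants lay above all 3 wild types for 2 factors, Eif2d and Eif4ebp2 (4.23% of protein-coding genes), and below for 5, Eif1b, Eif2s2, Eif3c, Eif4g2 and Eif5 (11.5%). Both shares of the factors, 3.39% and 8.47%, are near the background. Round spermatid markers (6 genes) summed to 109 to 145 CPM in wild-type input and 44.0 to 67.1 CPM in mutant input, and spermatocyte markers to 2411 to 2854 and 1743 to 2036 CPM. None of these 12 markers was listed at 0 in all libraries of either genotype in input, and their part in the differences of the factors was not tested. In such bulk libraries, fewer cells of a type and less RNA per cell cannot be told apart.

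Eif4ebp2, which sequesters eIF4E when mTOR is inactive, differed most. It had 35.5, 35.0 and 36.9 CPM in wild-type input and 76.6, 92.8, 76.6 and 62.5 CPM in mutant input. All mutants stood far above the wild types, by 1.12 ± 0.17 on the log2 scale or 2.18-fold. The edgeR test did not pass after adjustment over 36572 features (adjusted p = 0.284), while that of DESeq2 did (adjusted p = 2.1e-06). In IP its levels were 22.2, 28.8 and 34.7 CPM in wild type and 24.5, 20.2, 29.2 and 37.6 CPM in mutants, which overlapped (log2 -0.02 ± 0.29). The IP/input ratio was therefore 0.625, 0.823 and 0.940 in wild types and 0.320, 0.218, 0.381 and 0.601 in mutants, without overlap. The log2 difference of IP from input was -1.5 ± 0.32 within mutants (adjusted p = 0.0400) and -0.04 ± 0.16 within wild types (adjusted p = 0.878). These 2 fits were scaled separately, and fitted wild-type values lie 0.31 above the CPM scale. By CPM, IP was below input in each wild type too. The interaction, which tests in 1 fit whether the genotypes differ in this, was -1.15 ± 0.41 (adjusted p = 0.570). Without mutants 12 and 69 the input difference was 0.95 and the difference of fractions in mutants -1.03, with an adjusted p of 0.243 for the latter.

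Eif5 had 580, 619 and 551 CPM in wild-type input and 462, 430, 474 and 486 CPM in mutant input (log2 -0.32 ± 0.08, adjusted p = 0.347). Eif3c had 269, 281, 301 and 316 CPM in mutant input, below its wild-type levels (log2 -0.27 ± 0.09, adjusted p = 0.453). Eif2s2 had 115, 141, 179 and 155 CPM there (log2 -0.34 ± 0.14, adjusted p = 0.736), and Eif4g2 had 402, 319, 457 and 439 CPM (log2 -0.31 ± 0.13, adjusted p = 0.775, and 0.047 on log2 TPM). These 4 genes were lower in each mutant than in each wild type, at 0.789 to 0.832 of the wild-type level, and none passed the adjusted test in edgeR.

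In IP, edgeR called 0 of 60 factors (0.00764% of all features). Before adjustment, 1 had a p under 0.05 among those higher and 1 among those lower, beside 352 and 2695 of all 26186 features. The balance of the factors moved with the scaling and with single animals. It was 5 and 1 with RLE factors (590 and 2319 features) and 10 and 1 by DESeq2 (1077 and 2637). Without mutant 12 it was 1 and 5 (522 and 3505 of 25364 features). Without mutants 12 and 69 it was 2 and 8, and features were not counted there. With RLE factors 41 of 60 factors were above 0 rather than 28, with a median of 0.084. DESeq2 called 3 higher, Eef1d, Eif3g and Eif3i, where it called 10.4% of features. The mutants lay above the wild types for 3 factors, Eif1ax, Eif3g and Eif3i (2.4% of protein-coding genes), and below for 3, Eif1b, Eif3j1 and Eif3m (13.2%). In the TMM fit the median was -0.02 for the factors and -0.12 for protein-coding genes. Round spermatid markers in IP summed to 66.7 to 96.1 CPM in wild types and 15.3 to 45.2 CPM in mutants, in which Tnp1, Prm1 and Gapdhs (3 of 6) were at 0 in every library, and spermatocyte markers to 5401 to 6272 and 4180 to 4523 CPM.

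By CPM, Eif1b was the factor that stood lower in the mutants in input, in IP and in their ratio. It had 71.5, 87.5 and 80.7 CPM in wild-type input and 63.9, 64.6, 58.3 and 52.4 CPM in mutant input, without overlap (log2 -0.40 ± 0.14, adjusted p = 0.558). In IP it had 105, 113 and 103 CPM in wild type and 62.5, 79.4, 37.8 and 62.8 CPM in mutants, again without overlap (log2 -0.80 ± 0.24, adjusted p = 0.144). Its IP/input ratio was 1.47, 1.3 and 1.27 in wild type and 0.979, 1.23, 0.648 and 1.20 in mutants. The 2 genotypes did not overlap in this ratio, but the gap was small and the interaction was -0.46 ± 0.26 (adjusted p = 0.796). By TPM the ratios did overlap, with 0.983, 0.918 and 0.918 in wild types and 0.656, 0.786, 0.409 and 0.933 in mutants. Within wild types Eif1b was higher in IP by 0.74 ± 0.10 (adjusted p = 0.0189), which became -0.090 on log2 TPM, and within mutants it had -0.03 ± 0.22.

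Eif3i was the factor with the smallest p among those higher in mutant IP. It had 180, 163 and 165 CPM in wild-type IP and 217, 189, 195 and 196 CPM in mutant IP (log2 0.26 ± 0.10, adjusted p = 0.321, DESeq2 adjusted p = 0.00054). In input its levels overlapped, with 88.8, 83.6 and 111 CPM in wild type and 102, 91.9, 90.2 and 90.7 CPM in mutants. Eif3m had 140, 147 and 146 CPM in wild-type IP and 121, 133, 110 and 137 CPM in mutant IP (log2 -0.18 ± 0.12, adjusted p = 0.853). Subunits of the same complex thus lay on either side of the wild type, at 1.20 and 0.88 of its level.

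**Figure D4:**
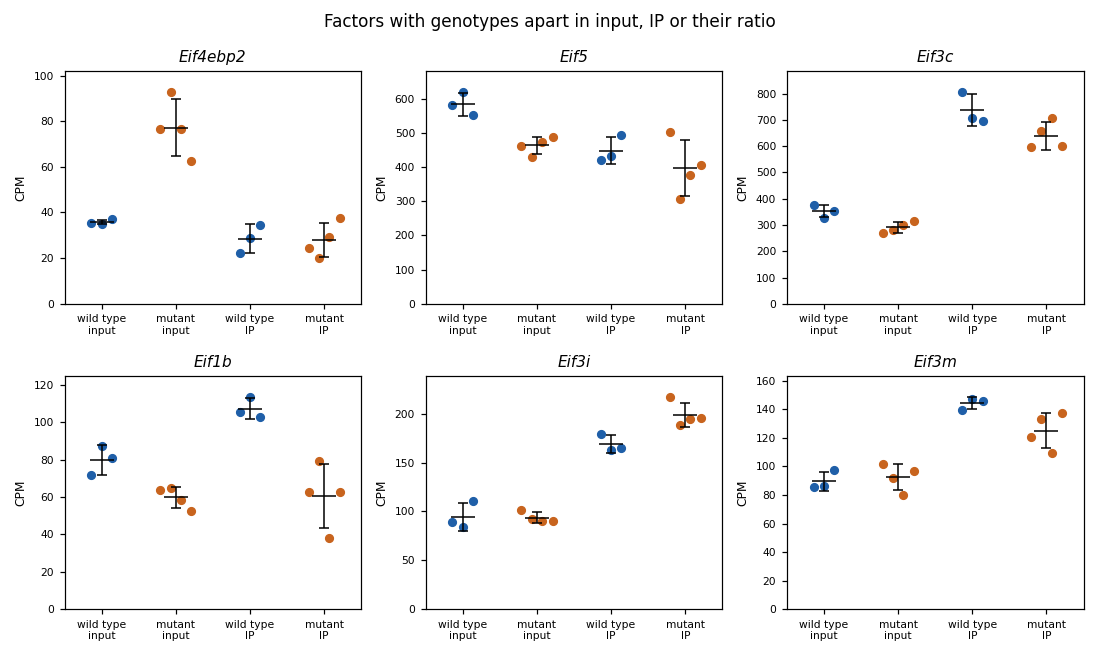
The panels show 6 factors whose genotypes did not overlap in input, IP or the IP/input ratio, as CPM from 0 in the 14 libraries, with the mean as a bar and the SD as whiskers. Eif4ebp2 in mutant input, at 62.5 to 92.8 CPM, lies above all other groups. Eif1b in mutant IP, at 37.8 to 79.4 CPM, lies below wild-type IP.

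The third comparison asked whether ribosome association, the IP/input ratio, differed between genotypes. By edgeR, the interaction of fraction and genotype called 0 of 55 factors (0.0% of all features). Only 1 factor, lower in mutants, had a p under 0.05 before adjustment, beside 76 higher and 1080 lower of all 16014 features. Without mutant 12 such factors were 0 higher and 5 lower (133 and 1681 of 18769 features). Without mutants 12 and 69 they were 2 and 6, and features were not counted there. DESeq2 also called 0 of these factors, where it called 6.11% of features. By CPM, the ratio of all 4 mutants lay above that of the 3 wild types for Eif3i alone (1.37% of protein-coding genes). It lay below for 3 factors, Eif1b, Eif3m and Eif4ebp2 (7.02%). The CPM ratios of Eif3i were 2.02, 1.95 and 1.49 in wild types and 2.13, 2.06, 2.16 and 2.16 in mutants. Those of Eif3m were 1.63, 1.71 and 1.5 and 1.19, 1.45, 1.37 and 1.42. By TPM, the mutants lay above for Eif3i and Eef1g, and below for Eif2a, Eif3m and Eif4ebp2, while Eif1b overlapped. The TPM ratios of Eef1g were 0.958 to 1.004 in wild types and 1.11 to 1.41 in mutants. Those of Eif2a were 1.07 to 1.14 and 0.511 to 1.03. The edgeR interaction was 0.21 ± 0.12 for Eef1g (adjusted p = 0.791) and -0.22 ± 0.43 for Eif2a (adjusted p = 0.967). No share of protein-coding genes is given for TPM ratios. The median interaction was 0.06 for the factors and -0.16 for protein-coding genes, with a median standard error of 0.30 for the factors. The median of the factors became -0.095 without wild type 140, -0.11 without wild type 17 and -0.087 without mutant 93. Sertoli cell markers moved in this comparison too. All 6 lay below 0, 2 of them at an unadjusted p under 0.05, with a median of -1.69. Their sum was 19.5 to 81.6 CPM in mutant IP, where none was at 0 in every library, beside 51.5 to 168 CPM in wild-type IP. Their part in the interaction of the factors was not tested.

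**Figure D5:**
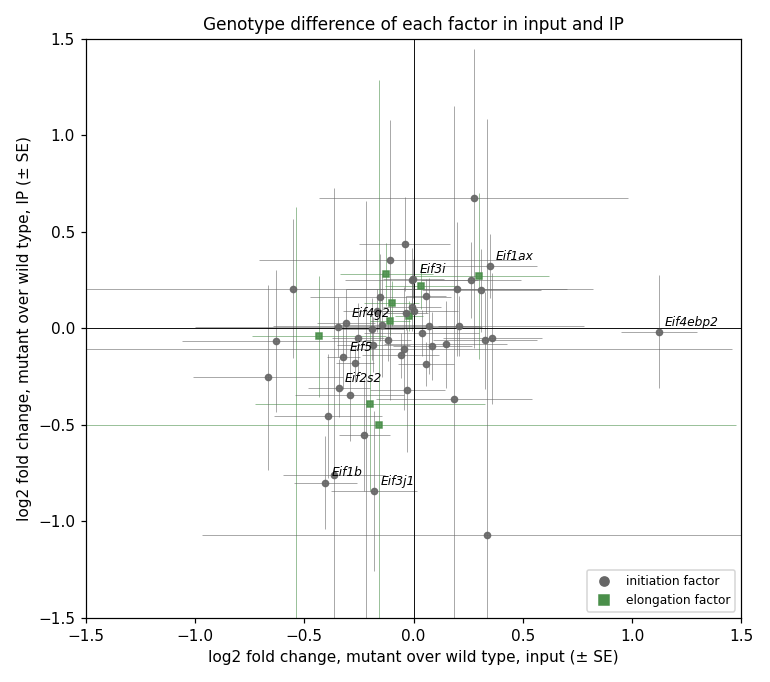
Each point is 1 of 59 factors, with the log2 fold change of mutants over wild types in input on the x axis and in IP on the y axis, and bars of 1 standard error. Of these, 57 lie inside the axes and 2 lie outside. Most points lie close to 0 on both axes, Eif4ebp2 stands apart to the right at 1.12 in input and -0.02 in IP, and Eif1b lies below at -0.80 in IP.

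Estimates for single libraries limited several genes. In mutant input Eif2b5 had 11.1 CPM in animal 12 against 97.6 to 145 CPM in the others, and Eif3l had 10.1 CPM in animal 69 against 90.5 to 97.2 CPM. Eif5b was listed at 0 in the input of animal 69 and Eif2b1 in the input of animal 12. Eif2b5, Eif3l and Eif2b1 are named after their values were seen. These 4 genes had standard errors of 0.66 to 1.5 in the input comparison. RSEM divided reads between annotated and assembled transcripts in each library, and the part of that step was not tested.

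The 9 factors with known TOP mRNAs (Eef1a1, Eef1b2, Eef1d, Eef1g, Eef2, Eif3e, Eif3f, Eif3h and Eif4b) were counted beside all factors. In wild type 6 were higher in IP and none lower by edgeR, with 7 above and 1 below at an unadjusted p under 0.05 and 7 higher and 1 lower by DESeq2. Their median was 0.50, below that of all factors. In mutants 3 were higher, with a median of 0.26. Between genotypes edgeR called 0 of them in either fraction or in the interaction, with 0 at an unadjusted p under 0.05 in each, while DESeq2 called Eif4b in input and Eef1d in IP.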

How the data were processed

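RNA was measured by paired-end sequencing of stranded libraries depleted of ribosomal RNA. The authors removed ribosomal reads with Bowtie2, trimmed with Trimmomatic and ran RSEM 1.3.3 on GRCm38 with Ensembl, testis-assembled and spike-in transcripts. Whether the counting used strand is not given in the sources used here. The deposited expected counts are estimated reads per transcript, not normalized. The TPM values were deposited by the authors from the same runs, scaled by transcript length and library. Here they were summed by gene and rescaled so that protein-coding genes had the same total in every library. The TPM levels, the TPM ratios and the limma fits use these rescaled values, not the deposited ones. Of 182829 entries, 133849 are Ensembl transcripts, 133445 of which matched a GENCODE M21 symbol, 404 did not, 48888 were assembled and 92 were spike-ins, left out of the tests.

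Expected counts were summed by symbol, rounded and tested with edgeR 4.0.16 (TMM, filterByExpr, robust quasi-likelihood, Benjamini-Hochberg at 0.05 over all features) on R 4.3.3. Fits of input and of IP held 7 libraries each. Comparisons of IP with input and the interaction took the animal as a block, since both libraries came from the same animal by the labels. After removal of group means, input and IP of an animal correlated by 0.129, 0.231 and 0.0904 in wild types and by 0.0605, 0.0160, 0.00756 and 0.126 in mutants, over 8376 genes. The highest correlation with the IP of another animal of the same genotype was 0.0851, -0.0621 and -0.0330 in wild types. It was 0.0309, 0.0201, 0.0756 and 0.0200 in mutants, so for mutants 69 and 93 it exceeded that with the own IP. Features with a count of 0 in an input library did not enter the interaction fit. Genes low in all libraries did not enter the tests, so 55 to 60 of 63 factors were tested. Alternatives were DESeq2 1.42.0, limma 3.58.1 on log2(TPM + 1), RLE factors, other filters, protein-coding genes alone, no block and leaving out each animal. Alternatives chosen after seeing the data were coding transcripts alone, Eif3j1 and Eif3j2 summed, and mutants 12 and 69 left out. Scripts were tested on simulated data. Figures and shares used Python 3.11.15 with pandas 2.3.3, numpy 2.4.6 and matplotlib 3.10.9.

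Named genes were the elongation core, the paralog pairs and factors at an unadjusted p under 0.05 between genotypes. From each complex came the one with the smallest p in wild-type IP against input and those of highest and lowest TPM. Factors without overlap in the IP/input ratio of CPM were named too. The 63 genes, the lists and the rule were chosen with earlier results of these data known. Each library is a separate animal, and read counts cover counting error only.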

Additional observations from a re-analysis of the deposited data

Results flagged for a closer look

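Among 83 sets of 4 mutant libraries examined for the named factors, 2 held a library far from the other 3 by Dixon's criterion, where chance gives about 1 in 20. Eif4g1 had 270 CPM in the IP library of mutant 12, against 45.2 to 75.8 CPM in the IP libraries of the other mutants. Eif3i had 101.8 CPM in the input library of mutant 12, against 90.2 to 91.9 CPM in the input of the others. Both came from animal 12, whose input library also had few genes above 0. For Eif3i this library lay inside the range of the wild-type inputs, and for Eif4g1 it lay above every other library.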

How the results depend on the processing

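Between genotypes, edgeR called 0 factors in input, in IP and in the interaction under every alternative run. DESeq2 called 3 in input (2 higher and 1 lower) and 3 in IP (all higher). For IP against input in wild type, the count of 38 kept within 30 to 47 except when an animal was left out. It then ranged from 0 to 21, with 0 without animal 121 or 140. In mutants the count of 16 became 26 by DESeq2 (19 higher and 7 lower), 10 to 12 without 1 animal, and 0 without mutants 12 and 69, an alternative chosen after seeing the data that leaves 2 animals. At an unadjusted p under 0.05, 36 factors were higher and 3 lower without animal 121, 36 and 2 without animal 140, and 23 and 9 without mutants 12 and 69. Without the replicate block, 41 factors were called in wild type, 20 in mutants and 0 in the interaction, so the pairing of the animal's libraries changed no count by over 1.5 times.

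On the log2 TPM scale of limma, the wild-type differences turned to -0.23 for Eef1a1, -0.023 for Eef1g, -0.45 for Eef2, -0.090 for Eif1b, -0.039 for Eif2s3y, -0.12 for Eif4a1, -0.34 for Eif4b and -0.95 for Eif5b, and the input difference of Eif4g2 to 0.047. Of these wild-type differences, limma called that of Eef2, as lower (adjusted p = 0.0126). The log2 TPM scale moved the median of protein-coding genes from 0.19 to -0.43. With Eif3j2 added, Eif3j1 turned to 0.042 in wild type. The cause of these changes was not tested, and the last value belongs to the sum of both genes. Over all tested factors 19 wild-type differences changed sign on log2 TPM, 8 of them among the calls. The tally over alternatives covers 63 results of single factors, those called, or with an unadjusted p under 0.05 between genotypes. Of their 824 values, 644 kept direction and side of the threshold, 167 lost the call (130 of them with animals left out), 3 gained it and 10 turned, the 9 on log2 TPM and Eif3j1 above. The long form of Eef1d made up 15.7% of counts in wild-type input, 3.92% in wild-type IP and 2.78% in mutant input, where by TPM it was 6.06%, 1.41% and 1.17%, since long transcripts take more reads. With 3 and 4 animals, edgeR called 3, 2 and 0 features in all between genotypes in input, IP and the interaction, so 0 called factors does not show that levels were alike, for large differences as for small ones. Genes with few counts or shared sequence are the least certain.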

Other observations

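Proteins that control these factors were described beside them, as a list of 32 genes drawn up with earlier results of these data known. In wild type 17 were higher and 3 lower in IP than in input by edgeR, with a median log2 difference of 0.87, beside 0.83 for the factors and 0.19 for protein-coding genes. In mutants 10 were higher and 3 lower. Mknk2, a kinase of eIF4E, was higher in wild-type IP by 1.82 ± 0.09 (SE, adjusted p = 0.00634), Paip1, a partner of poly(A)-binding protein, by 1.71 ± 0.08 (adjusted p = 0.00634), and Gspt1, a release factor, by 1.63 ± 0.13 (adjusted p = 0.00687). The 3 called lower in wild type were Eif2ak2, the kinase of eIF2α that senses double-stranded RNA, the helicase gene Ddx3x and the poly(A)-binding protein gene Pabpc2. Ddx3x, on the X chromosome, had -0.86 ± 0.15 (adjusted p = 0.0302) and its autosomal, testis-expressed relative D1Pas1 had 1.02 ± 0.10 (adjusted p = 0.00865).

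Between genotypes edgeR called 0 of the 32 in either fraction or in the interaction. At an unadjusted p under 0.05, 0 were higher and 3 lower in input, 2 higher and 2 lower in IP, and 1 higher in the interaction. DESeq2 called 1 higher in input, 2 higher and 1 lower in IP and 0 in the interaction. The 4 with the smallest p were Pabpc2 in IP (log2 -0.99 ± 0.24, adjusted p = 0.114) and in input (-0.66 ± 0.19, adjusted p = 0.352), Paip2b in IP (0.61 ± 0.18, adjusted p = 0.132), Denr in IP (0.65 ± 0.22, adjusted p = 0.230) and Pabpc1 in input (-0.37 ± 0.14, adjusted p = 0.598).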
